A study of Homo sapiens with 9 samples.

Results

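HOXA, MEIS1 and MLL-fusion target genes are transcripts that leukaemias with a rearranged MLL gene tend to keep at high levels. The deposited mean of HOXA9 was nonetheless low here, above that of only 19.3% of genes. HOXA9 overlaps other annotated genes and how reads from such stretches were counted is not given, so this level is uncertain. The 10 genes HOXA3, HOXA5, HOXA6, HOXA7, HOXA9, HOXA10, MEIS1, PBX3, MEF2C and MYB were looked up by their symbol in the authors' deposited table of comparisons. Of these, 5 were found among its 13410 genes (HOXA9, MEIS1, PBX3, MEF2C and MYB), and HOXA3, HOXA5, HOXA6, HOXA7 and HOXA10 are not analysed here. The rule uses the symbols alone, but the genes were chosen with earlier results of these data known.

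The cells were MV4-11, an established human line of acute myelomonocytic leukaemia that carries a fusion of the MLL gene (KMT2A) to AFF1 and an activating duplication in the receptor FLT3. They were kept for 18 h in 1000 nM alisertib, which blocks the catalytic activity of the mitotic kinase Aurora A, in 100 nM JB170, a degrader of Aurora A, or in the vehicle DMSO. Each of these 3 groups had 3 libraries, 9 in all, and all libraries came from this 1 line. Whether replicates were separate cultures is not stated, so a p-value here reflects library-to-library spread that may be technical. RNA came from whole cultures, so fewer cells of a kind and less RNA per cell cannot be told apart. The table holds 4 comparisons with DMSO: A1000 was taken for alisertib from its dose, JB170 is named, and A100 and MK match no labelled group and are called by their headers. All 4 headers name DMSO and the labels hold 1 DMSO group. The 4 comparisons were therefore taken to share its libraries, which is not stated. Every change is given as treated minus DMSO; this direction was inferred from the values, no header states it, and were it wrong for a column, every sign given for that column would turn.

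In cells with an MLL fusion, the fusion protein binds chromatin together with menin and recruits the super elongation complex and the histone H3 lysine methyltransferase DOT1L, which keeps the HOXA cluster and MEIS1 transcribed. HOXA proteins bind DNA with the TALE homeodomain proteins MEIS1 and PBX3, and this set holds myeloid cells in an immature, dividing state. MEF2C and MYB are further transcription factors on which such cells depend.

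The main result was small. With alisertib, MYB fell and the other 4 measured genes did not pass the test. With JB170, and in the columns A100 and MK, none of the 5 passed. MYB lay below 0 in all 4 comparisons and so did MEIS1, while HOXA9 and PBX3 lay above 0 in all 4, and MEF2C was split. As the 4 comparisons were taken to share the DMSO libraries, a common sign is no independent evidence. A gene was called where the authors' deposited table has an adjusted p under 0.05, which 5.92% of all genes reached with alisertib (2.83% as lower), 0.0298% with JB170, 1.30% in the column A100 and 0.470% in the column MK. With 5 genes measured, 1 call with alisertib is not a result about the group. At an unadjusted p under 0.05 in that table, 1 of the 5 passed with JB170 (HOXA9), 1 in the column A100 (MYB) and 0 in the column MK, against 3.02%, 11.6% and 8.65% of all genes.

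MYB, the transcription factor that drives the proliferation of haematopoietic progenitors, is the gene whose transcript fell, and its promoter is shown for that reason; that of HOXA9 is shown because its estimated changes were the largest. Each is the 250 bases before the RefSeq start in GRCh38.p14, written in the direction of transcription, MYB at chr6:135181058-135181307 on the plus strand and HOXA9 at chr7:27165538-27165787 on the minus strand. Capitals mark letters found on either strand by a search for the MYB site AACNG, the MEIS site TGACAG, the HOX-PBX site TGATTTA and the MEF2 site, which are sites for proteins that these genes encode.
MYB: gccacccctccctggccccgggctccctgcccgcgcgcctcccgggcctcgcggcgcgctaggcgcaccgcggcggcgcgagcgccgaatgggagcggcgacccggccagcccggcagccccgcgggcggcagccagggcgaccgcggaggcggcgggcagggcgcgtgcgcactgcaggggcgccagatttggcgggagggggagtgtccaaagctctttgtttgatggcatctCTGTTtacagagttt
HOXA9: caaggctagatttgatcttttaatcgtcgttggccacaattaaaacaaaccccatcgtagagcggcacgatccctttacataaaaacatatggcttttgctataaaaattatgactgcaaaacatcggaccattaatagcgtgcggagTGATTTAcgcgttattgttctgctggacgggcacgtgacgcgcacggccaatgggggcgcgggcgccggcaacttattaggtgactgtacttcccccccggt
The capitals in MYB are 1 match to AACNG on the opposite strand, a set of letters that 70.6% of 35093 promoter windows of this length hold. The capitals in HOXA9 are 1 match to TGATTTA, held by 2.59% of the windows. No 2 matches overlapped, and a match is a description of the letters, not a site of binding.

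MYB (ENSG00000118513) lies on chromosome 6, 135181315 to 135219173, plus strand, in the GRCh38 annotation, whereas the authors' processing notes name hg19. In the authors' deposited table MYB changed by -0.28 on the log2 scale with alisertib, a level 0.824 times that in DMSO (p = 0.00015, adjusted p = 0.00641). The standard error implied by that fold change and p was 0.07, with a 95% interval from -0.42 to -0.14. The fall was small, and its interval did not reach 0. With JB170 MYB stood at -0.05 (interval -0.19 to 0.10; adjusted p = 1 in the authors' deposited table). In the column A100 it stood at -0.26 (interval -0.41 to -0.11), where the authors' deposited table gives p = 0.000687 and an adjusted p of 0.0553, just short of a call. With the adjustment computed over the 13410 genes of the table the call was made, at an adjusted p of 0.0488. That adjustment leaves out 3402 tests of the authors, so this call is no added evidence. In the column MK, MYB stood at -0.19 (interval -0.44 to 0.05; adjusted p = 0.735 in the authors' deposited table).

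How MYB compared with genes of like abundance was also looked at. Its mean of 9.15 log2 CPM (read counts scaled to library size, as deposited by the authors) was above that of 98.6% of the genes in the table. Within 0.5 log2 CPM of it were 252 genes, itself included, of which 32 (12.7%) were called with alisertib, with changes as small as 0.23 in size. With alisertib 8 of these genes lay lower than MYB and 243 higher. In the column A100 5 lay lower, in the column MK 20 and with JB170 56. MYB was thus near the low end of its abundance class in the columns A1000 and A100, and less so in MK and JB170. These ranks rest on the same fold changes and are no further evidence of a fall or of a difference between columns.

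**Figure D1:**
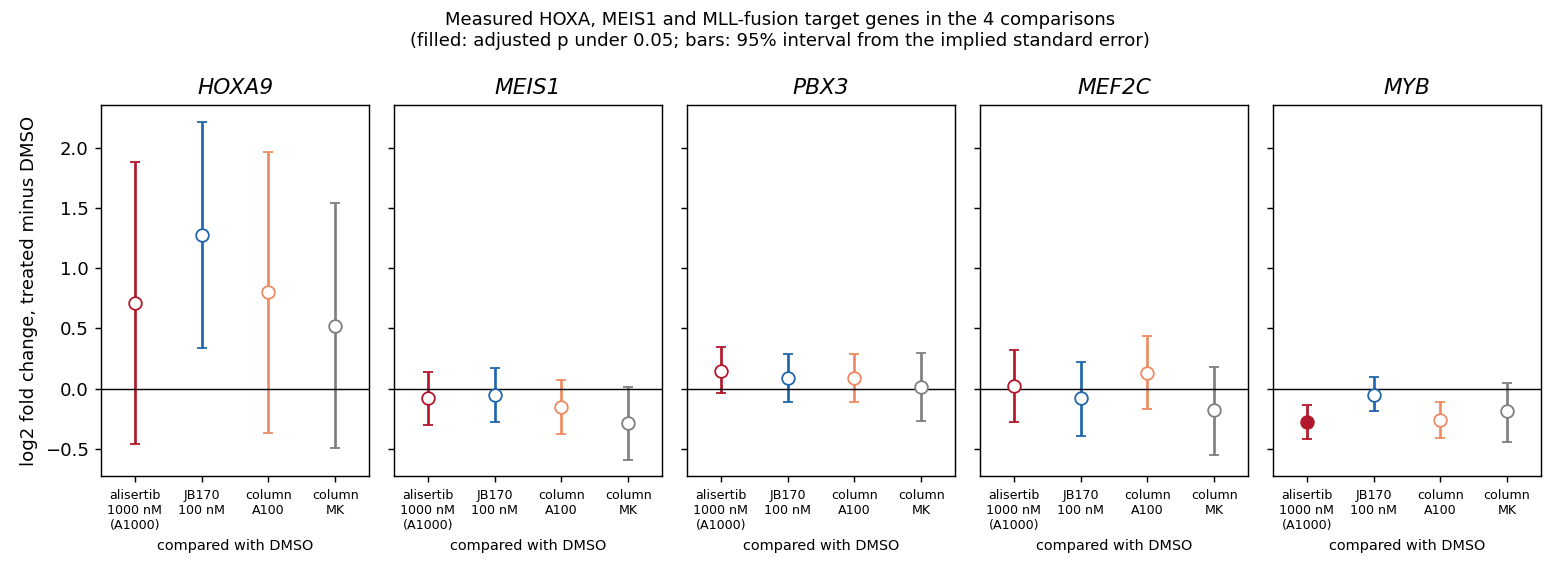
Each panel is 1 gene and each point its log2 fold change, treated minus DMSO, in 1 of the 4 comparisons, with a 95% interval from the implied standard error; a filled point has an adjusted p under 0.05. MYB with alisertib at -0.28 is the only filled point, and the intervals of HOXA9 are the widest.

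HOXA9 (ENSG00000078399, chromosome 7, 27162435 to 27175180, minus strand, GRCh38) encodes the homeodomain protein most closely tied to MLL-rearranged leukaemia. The authors' deposited table gave it the largest estimates of the 5 genes and the lowest mean, 1.41 log2 CPM. With alisertib HOXA9 stood at 0.71 (interval -0.46 to 1.88), for which the authors' deposited table gives p = 0.234 and an adjusted p of 0.658. With JB170 HOXA9 stood at 1.28, a level 2.43 times that in DMSO, with p = 0.00736 and an adjusted p of 1 in the authors' deposited table (interval 0.34 to 2.22). The columns A100 and MK gave 0.80 (interval -0.37 to 1.97) and 0.52 (interval -0.49 to 1.54), and the authors' deposited table calls neither.

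The change of HOXA9 with JB170 did not pass the test. Its rank among genes of its abundance rests on the same value and is no further evidence. Of 1025 genes within 0.5 log2 CPM, itself included, 1023 lay lower with JB170 and 1 higher. Were the JB170 column coded like the others, this order would be reversed. The counts of genes higher than HOXA9 were 91 with alisertib, 28 in the column A100 and 146 in the column MK. At this level 1 gene was called with JB170 and 17 with alisertib, and no change smaller than 1.07 in size was called with alisertib. The estimate of HOXA9 with alisertib lies under that size. HOXA9 overlaps HOXA10 by 4590 bases of the annotated gene on the same strand, and the protein-coding gene annotated as AC004080.3, which extends over parts of both, by 11646 bases. The antisense gene HOXA10-AS overlaps it by 3297 bases. How reads from such stretches were counted is not given in the sources used here, so the level of HOXA9 and its changes are uncertain.

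MEIS1 (ENSG00000143995, chromosome 2, 66433452 to 66573869, plus strand, GRCh38), the TALE partner that cooperates with HOXA9 in transforming cells, was measured at a mean of 5.76 log2 CPM. The authors' deposited table puts it at -0.08 with alisertib (interval -0.30 to 0.14) and -0.05 with JB170 (interval -0.28 to 0.17), and calls neither. The columns A100 and MK gave -0.15 (interval -0.38 to 0.07) and -0.29 (interval -0.59 to 0.01), with adjusted p-values of 0.727 and 0.606 in the authors' deposited table. The widest of these intervals reaches -0.59, so a larger fall of MEIS1 lay outside them all. Among 2379 genes within 0.5 log2 CPM, changes as small as 0.30 were called with alisertib.

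PBX3 (ENSG00000167081, chromosome 9, 125747345 to 125967377, plus strand, GRCh38), the other TALE partner, stabilises HOXA9 and MEIS1 on DNA. In the authors' deposited table PBX3 stood at 0.15 with alisertib (p = 0.126, adjusted p = 0.497) and at 0.09 with JB170 (adjusted p = 1). The intervals ran from -0.04 to 0.35 with alisertib and from -0.11 to 0.29 with JB170. In the columns A100 and MK it stood at 0.09 and 0.01 in the authors' deposited table, also not called. Its 4 values spanned 0.14, the narrowest span of the 5 genes.

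MEF2C (ENSG00000081189, chromosome 5, 88717117 to 88904257, minus strand, GRCh38) encodes a MADS-box factor raised by MLL fusions. It stood at 0.02 with alisertib (interval -0.28 to 0.32) and -0.08 with JB170 (interval -0.39 to 0.22), and the authors' deposited table gave 0.13 in the column A100 and -0.18 in the column MK. None was called, and the smallest adjusted p of MEF2C over the 4 comparisons was 0.888 in the authors' deposited table. The sign of MEF2C was not the same in the 4 comparisons, with 2 values above 0 and 2 below.

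Per kilobase of annotated exon in GENCODE, the mean level was 6.69 for MYB on the log2 CPM scale, 4.10 for PBX3, 2.31 for MEIS1, 1.01 for MEF2C and -0.19 for HOXA9. This order is a description: the spread over libraries is unknown, so whether neighbours in it differ was not tested, and the overlaps above bear on HOXA9. Before division by length, 19.3% of genes had a lower mean log2 CPM than HOXA9, 47.2% than MEF2C, 67.2% than MEIS1 and 76.2% than PBX3.

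**Figure D2:**
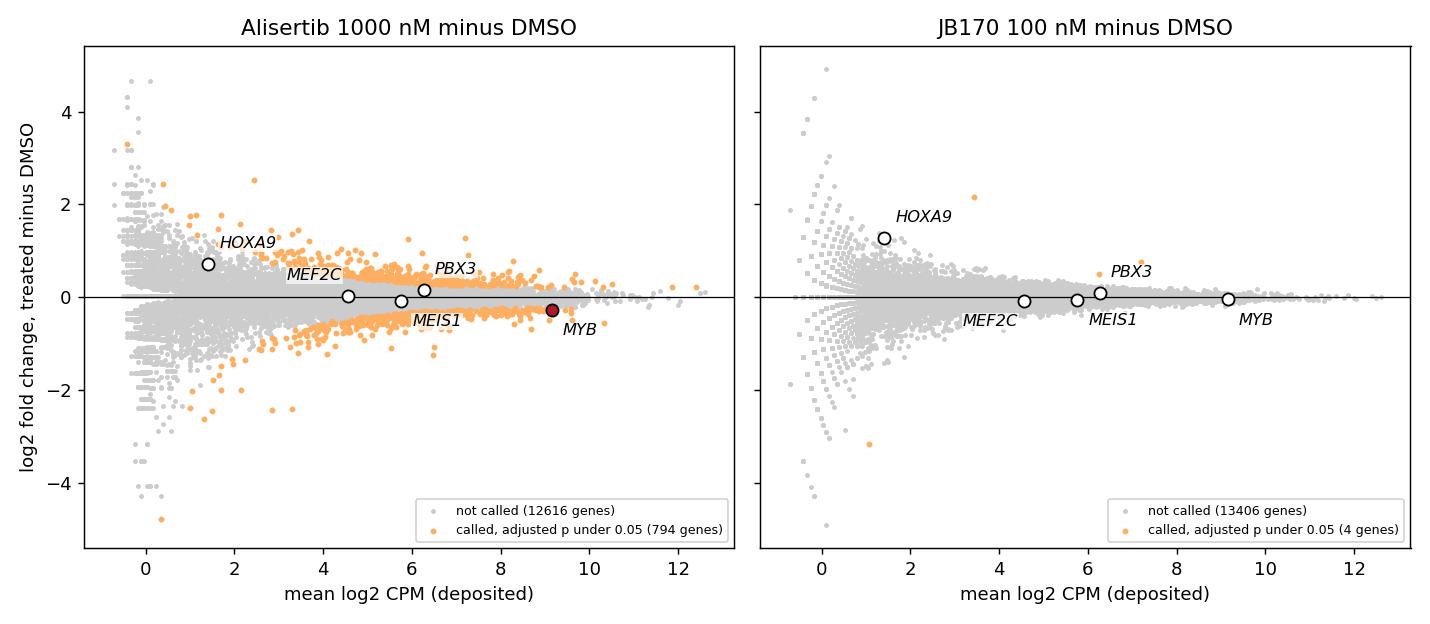
Log2 fold change, treated minus DMSO, against the deposited mean log2 CPM for 13410 genes, with alisertib on the left and JB170 on the right; called genes are orange and the 5 genes are circled. MYB lies at the lower edge at high abundance with alisertib, and HOXA9 at the upper edge at low abundance with JB170.

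Over the 5 genes the median change was 0.02 with alisertib, -0.05 with JB170, 0.09 in the column A100 and -0.18 in the column MK, where that of all genes was 0.01, 0.00, 0.00 and 0.00. Without HOXA9, the only one of the 5 under a mean of 3 log2 CPM, the medians were -0.03, -0.05, -0.03 and -0.19 in the same order of comparisons.

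Whether the compounds differed was tested on the difference of the log2 fold changes, over all genes, for alisertib minus JB170, minus A100 and minus MK. The errors were those implied by the authors' p-values. None of the 5 genes was called in any of these 3 differences, against 0.283%, 0.0895% and 0.0820% of all genes. With the DMSO libraries that both columns share taken off the error, again none of the 5 was called, against 2.71%, 0.738% and 1.28% of all genes. The last share may be too high, because errors in the column MK were larger. Near the level of MYB their median was 0.13, against 0.07 with alisertib. For MYB the difference between alisertib and JB170 was -0.23 (interval -0.44 to -0.03), with an unadjusted p of 0.0265 and an adjusted p of 0.915. With the shared libraries off, its interval was -0.38 to -0.09 and its adjusted p 0.0589. Were the JB170 column coded like the others, the difference for MYB would be -0.33 and called, at an adjusted p of 0.0461. The share of all genes called under that coding is not given here, so this call has no background beside it. The doses differ, 1000 nM against 100 nM, so the difference between alisertib and JB170 compares the compounds at those doses only. Between alisertib and the column A100 MYB differed by -0.02 (interval -0.23 to 0.19) and between alisertib and MK by -0.09 (interval -0.37 to 0.20). For HOXA9 the difference between alisertib and JB170 was -0.57 (interval -2.07 to 0.92), which is too wide to show any difference short of a large one. Were the JB170 column coded like the others, it would be 1.99, with an adjusted p of 0.118. For MEIS1 it was -0.03 (-0.34 to 0.29), for PBX3 0.06 (-0.22 to 0.34) and for MEF2C 0.10 (-0.32 to 0.53).

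The genes whose 4 changes lay nearest to those of MYB, by Euclidean distance among 9320 genes whose mean log2 CPM was 3 or higher, were the centrosomal protein gene CEP72 (distance 0.0475 on the log2 scale), the peroxisomal protease gene TYSND1 (0.0569) and the neuregulin gene NRG4 (0.0598). The authors' deposited table puts them at -0.27, -0.25 and -0.23 with alisertib and calls none.

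The rest of the HOXA cluster was sparsely measured. Of the other HOX genes and the CDX genes that act above them, 5 of 36 named were found, and of the noncoding RNAs of the cluster 3 of 7. With alisertib none of these 8 was called, against 5.92% of all genes. HOXA11 was the most abundant, at a mean of 5.70 log2 CPM, and stood at -0.22 with alisertib (p = 0.0558, adjusted p = 0.334), 0.01 with JB170, -0.21 in the column A100 and -0.13 in the column MK in the authors' deposited table. HOXA13 stood at 0.41 with alisertib in the authors' deposited table. HOTAIRM1, a myeloid noncoding RNA of the cluster, stood at 0.40 with alisertib and -0.39 in the column A100, and HOXA11-AS at 0.36 and 0.56, in the authors' deposited table. HOTTIP, a noncoding RNA at an end of the cluster, stood at -0.11 with alisertib in the authors' deposited table. HOXA13 and these noncoding RNAs had low means, from 1.28 for HOTTIP to 2.76 log2 CPM for HOTAIRM1, and none was called. Their implied standard errors with alisertib ran from 0.27 to 0.58. For HOTAIRM1 the errors were 0.27 with alisertib and 0.31 in the column A100, so its opposite signs show no contrast. The intestinal homeobox gene CDX2, an activator of HOX genes in leukaemia, had a deposited mean of only 1.19 log2 CPM, which is not specific to a column. It fell by 2.36 on the log2 scale in the column A100 (adjusted p = 0.0378 in the authors' deposited table). With alisertib CDX2 stood at -0.57, with an adjusted p of 0.692 there.

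**Figure D3:**
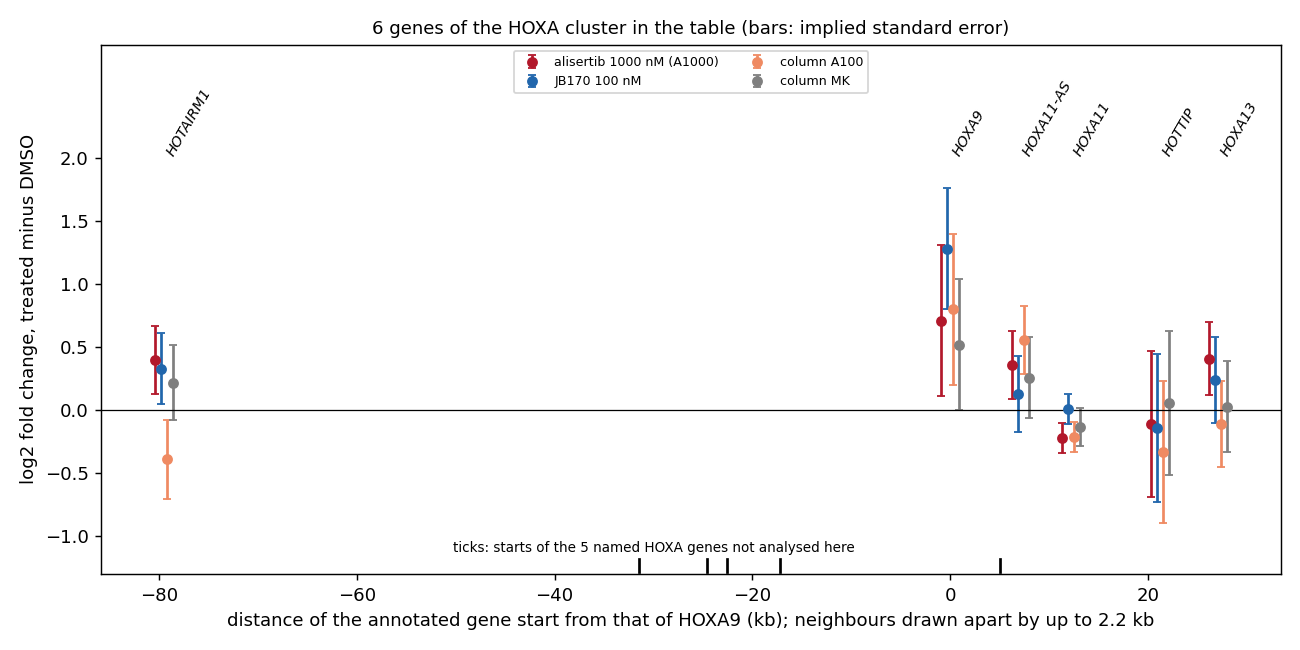
Log2 fold change, treated minus DMSO, of 6 genes of the HOXA cluster in the table against the distance of their annotated start from that of HOXA9 in kb. Starts are those of GENCODE, at 27175180 for HOXA9. The RefSeq start behind the HOXA9 promoter shown above is another and lies inside that annotated gene. Colours are the 4 comparisons and bars the implied standard error. HOXA9 lies above 0 in all 4 comparisons, HOXA11 lies between -0.22 and 0.01 with narrower bars, and no value is called.

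With alisertib 1 of 7 measured TALE cofactors rose and none fell, where 5.92% of all genes were called in either direction. PBXIP1, which encodes a protein that binds PBX factors and hinders their binding to DNA, rose by 0.64 on the log2 scale with alisertib, with an adjusted p of 3.43e-05 in the authors' deposited table. It stood at 0.19 with JB170, 0.24 in the column A100 and 0.31 in the column MK, none of which passed. The difference between alisertib and JB170 for PBXIP1 was 0.45 (interval 0.09 to 0.80) with an adjusted p of 0.72, and of 0.0271 with the shared DMSO libraries taken off the error. For MEIS2, a paralogue of MEIS1, the authors' deposited table gives -0.13 with alisertib, and for PBX2 0.22. The median of the list was 0.17 with alisertib and -0.16 with JB170.

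Calls in the fusion machinery were few, and their counts are not a result about the lists. Of all genes 5.92% were called with alisertib and 1.30% in the column A100. Of 15 measured genes of the MLL complex and menin none was called with alisertib and 1 rose in the column A100. That gene was KMT2A, listed under its older symbol MLL, which rose by 0.56 there (adjusted p = 3.26e-05) but stood at 0.16 with alisertib, 0.18 with JB170 and -0.32 in the column MK in the authors' deposited table. A count per gene does not separate the fusion transcript from that of the normal allele. KMT2A differed between alisertib and the column A100 by -0.40 (interval -0.69 to -0.12), with an adjusted p of 1, and of 0.0193 with the shared DMSO libraries taken off the error. Between alisertib and the column MK it differed by 0.48 (interval 0.13 to 0.84), with an adjusted p of 0.863, and of 0.0268 with the shared libraries off. The implied standard error of KMT2A was 0.15 in the column MK and 0.10 with alisertib. Taking the shared libraries off assumes like errors, so the value of 0.0268 may be too small. For AFF1, the partner in the fusion, the authors' deposited table gives 0.23 with alisertib (adjusted p = 0.0857) and 0.04 with JB170. For MEN1, which encodes menin, the authors' deposited table gives -0.06 with alisertib and -0.15 with JB170.

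DOT1L was the 1 gene that fell with alisertib among 25 genes of the super elongation, DOT1L and PAF complexes, and none rose. As 5.92% of all genes were called with alisertib, 1 of 25 is near the background. In the authors' deposited table DOT1L fell by 0.39 on the log2 scale with alisertib (adjusted p = 0.000197) and stood at 0.03 with JB170, -0.12 in the column A100 and -0.27 in the column MK. The difference between alisertib and JB170 for DOT1L was -0.42 (interval -0.65 to -0.19), with an adjusted p of 0.0801, and of 9.58e-05 with the shared DMSO libraries taken off the error. The median of the list was 0.02 with alisertib and 0.04 with JB170. Among 17 Polycomb genes, whose products silence HOX genes, 1 fell with alisertib: PCGF1, at -0.51 (adjusted p = 0.0489 in the authors' deposited table). A count of 1 of 17 is also near the 5.92% of all genes.

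Other reported MLL fusion targets were measured for 31 of 40 genes. With alisertib 3 rose and 2 fell, in the column A100 2 rose, in the column MK 1 rose, and with JB170 none was called. In the same order, 5.92%, 1.30%, 0.470% and 0.0298% of all genes were called. CCNA1, which encodes the germ-cell cyclin A1, also made by myeloid leukaemias, rose by 1.25 with alisertib, and the authors' deposited table also calls it in the columns A100 (0.74) and MK (0.88). JMJD1C, a jumonji protein of myeloid leukaemia, rose by 0.44 with alisertib (adjusted p = 0.000109) and by 0.46 in the column A100 (adjusted p = 0.000232) in the authors' deposited table, and stood at 0.23 with JB170. LGALS1, the lectin galectin-1, rose by 0.49 with alisertib, with an adjusted p of 4.09e-08 in the authors' deposited table. The SUMO protease gene SENP6 fell by 0.56 (adjusted p = 9.42e-05) and MYC fell by 0.26 (adjusted p = 0.013) with alisertib in the authors' deposited table, the change of MYC being close in size to that of MYB. With alisertib 14 of the 31 lay above 0 and 17 below, and the median was -0.03.

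Targets reported for HOXA9 and MEIS1 were split as well, with 2 higher and 2 lower of 18 with alisertib and none called in the other 3 comparisons. The shares of all genes called were 5.92% with alisertib, 0.0298% with JB170, 1.30% in the column A100 and 0.470% in the column MK. PIM1, a survival kinase, fell by 0.58 with alisertib (adjusted p = 1.92e-10) in the authors' deposited table, which puts it at -0.05 with JB170. SOX4, a factor of immature cells, rose by 0.44 (adjusted p = 0.000104) and the phosphatase gene DUSP6 rose by 0.33 (adjusted p = 0.0124) with alisertib in the authors' deposited table. CCND3, which encodes cyclin D3, fell by 0.23 with alisertib, with an adjusted p of 0.0422 in the authors' deposited table. PIM1 was called in the difference between alisertib and JB170, at -0.53 (interval -0.75 to -0.31) with an adjusted p of 0.00252. CCNA1 at 1.03 (interval 0.75 to 1.32) and LGALS1 at 0.44 (interval 0.23 to 0.66) were called there too, with adjusted p-values of 4.82e-09 and 0.0207. These were the only 3 of 147 genes of the lists called in that difference, against 0.283% of all genes; with the shared DMSO libraries taken off the error 12 were called, against 2.71% of all genes. For alisertib minus A100 these counts were 0 and 5, and for alisertib minus MK 0 and 3. The count of 3 may be too high, because errors in the column MK were larger than with alisertib.

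Partners and reported targets of MYB were measured for 14 of 16 genes. With alisertib 2 rose and 1 fell, and the median was 0.16. In the column A100 2 rose, in the column MK 1 rose, and none was called with JB170. In the same order, 5.92%, 1.30%, 0.470% and 0.0298% of all genes were called. The chemokine receptor CXCR4 rose by 0.65 (adjusted p = 3.88e-07) and the coactivator gene CREBBP rose by 0.41 (adjusted p = 0.00584) with alisertib in the authors' deposited table. CXCR4 also rose by 0.51 in the column A100 (adjusted p = 0.00168) and by 0.59 in the column MK (adjusted p = 0.0268), and the authors' deposited table gives 0.19 with JB170, not called. EP300, the second coactivator that MYB binds, rose by 0.41 in the column A100 (adjusted p = 0.0491) and stood at 0.19 with alisertib in the authors' deposited table. CEBPB, a factor of myeloid maturation, fell by 0.58 with alisertib, with an adjusted p of 0.000169 in the authors' deposited table. With alisertib 9 of the 14 lay above 0 and 5 below. Of 12 genes of the MEF2 family and its regulators 1 rose with alisertib: HDAC5, a repressor of MEF2 factors, by 0.43, with an adjusted p of 0.00123 in the authors' deposited table. With 5.92% of all genes called, 1 of 12 is not a result about that list.

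**Figure D4:**
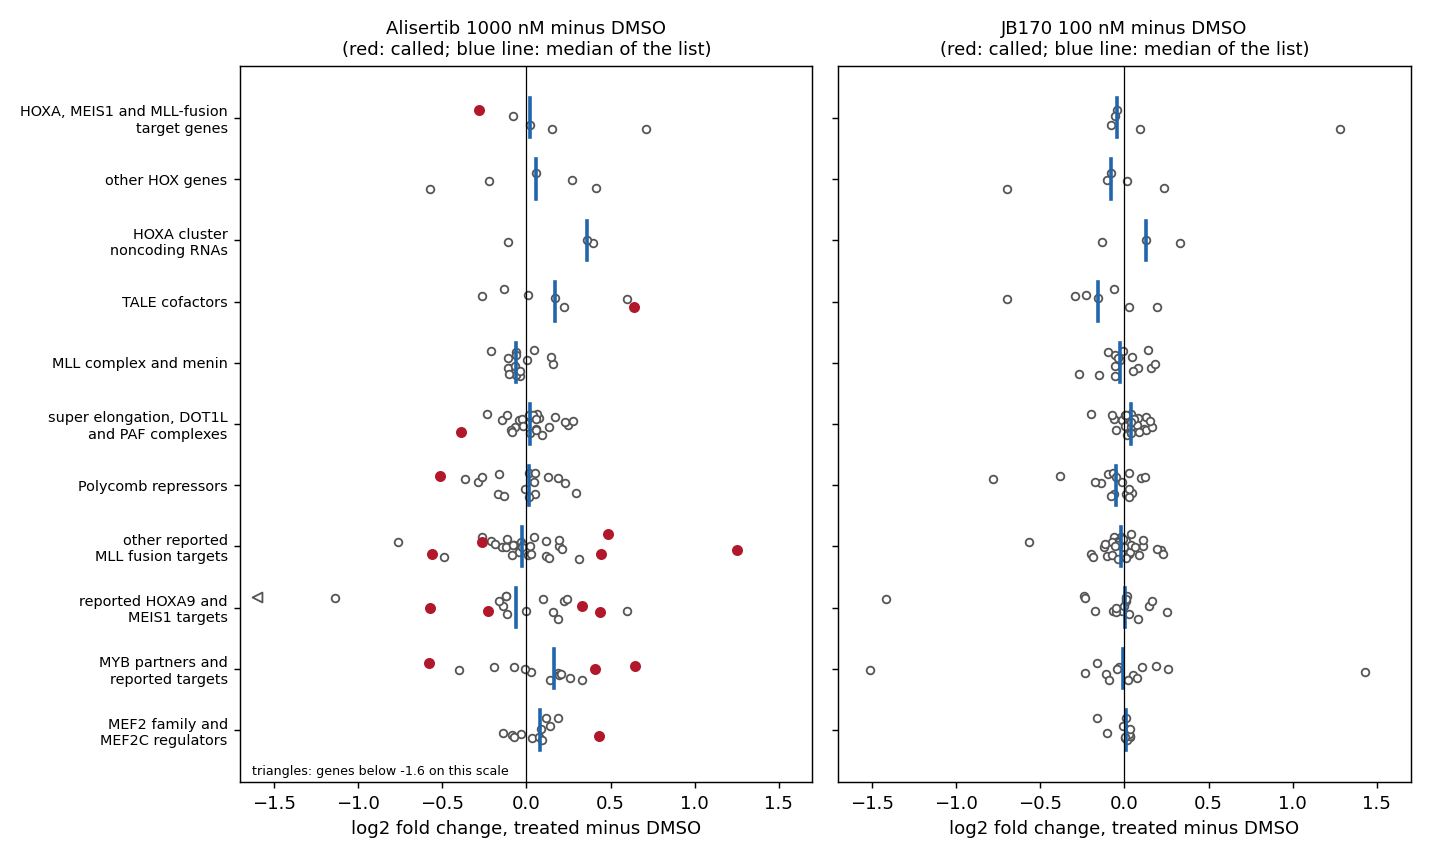
Log2 fold change, treated minus DMSO, of each measured gene of the 5 target genes and of 10 lists around them, with alisertib on the left and JB170 on the right; red points are called and blue lines are medians. Red points lie on both sides of 0 with alisertib, and JB170 has none.

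Over the 10 lists together, 147 genes were measured; 16 of them (10.9%) were called with alisertib, none with JB170, 6 (4.08%) in the column A100 and 2 (1.36%) in the column MK. Of all genes, 5.92% were called with alisertib, 0.0298% with JB170, 1.30% in the column A100 and 0.470% in the column MK. With JB170 4 of all 13410 genes were called, so a count of none among 147 is near the background. The lists were chosen with earlier results of these data known, so the shares of 10.9%, 4.08% and 1.36% are a description. Enrichment was not tested. The share called depends on abundance: it was 12.7% with alisertib among genes near the level of MYB and 1.66% among those near that of HOXA9.

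Markers of the cells were looked at once. Of 14 markers of monocytic leukaemia cells 13 were in the table. With alisertib 3 rose, CSF1R (0.69), CD68 (0.68) and ANPEP (1.02), and 1 fell, MNDA (-0.44), in the authors' deposited table. In the column A100 CSF1R (0.46), CD68 (0.49) and ANPEP (0.56) rose as well, and in the column MK ANPEP (0.66) rose. No other monocytic marker was called in these columns, and none was called with JB170. Of all genes, 5.92% were called with alisertib, 0.0298% with JB170, 1.30% in the column A100 and 0.470% in the column MK. Of the markers of erythroid, lymphoid and epithelial or fibroblast cells, 5, 5 and 4 were in the table, with means up to 4.27, 6.40 and 2.80 log2 CPM, and none was called in any comparison. The highest of these was IL7R. The median of the 13 monocytic markers with alisertib was 0.07, and CD14 stood at -0.61 and ITGAM at -0.05 without a call in the authors' deposited table. Their means were only 0.62 and 1.95 log2 CPM, with implied standard errors of 0.81 and 0.41 with alisertib, so neither value shows a direction. The part of these marker changes in the change of MYB was not tested.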

How the data were processed

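The 10 genes and the lists around them were chosen with earlier results of these data known. Poly(A) RNA from MV4-11 cells was sequenced as strand-specific libraries, per the labels' protocols. The submitters' processing notes name FastQC, TopHat2 2.1.1, Bowtie2 2.3.2 and hg19, while the counting, normalization, filtering and testing steps are not stated there. The authors' deposited table gives log2 fold changes, p-values and adjusted p-values of 4 comparisons, per the file headers, and 1 mean log2 CPM over unnamed libraries. Its 13485 rows reduced to 13410 genes once repeated identifiers were dropped. In the deposited column A100 the smallest adjusted p-value is 16812 times its p-value, so 3402 tests of the authors are not used here. No values per library were used: depth is unknown and no counting interval can be given.

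Each header puts DMSO first. As deposited, the JB170 log2 column had a Pearson's r of -0.49 with A1000, -0.53 with A100 and -0.45 with MK, whereas the other pairs gave 0.49 to 0.53; sharing DMSO libraries makes r positive between columns coded alike. Over genes changed by at least 1 in size with a mean log2 CPM from 0 to 4, positive values had a larger median log2 implied standard error than negative ones by 0.40 in A1000, 0.31 in A100, 0.29 in MK and 0.01 in JB170. A larger error at positive values is the pattern of DMSO minus treated if the mean covers more than the treated libraries. The signs of the columns A1000, A100 and MK were therefore turned, and that of JB170 kept, an inferred direction.

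Calls against DMSO are the authors' own. A standard error was derived from each log2 fold change and p-value under a normal distribution: the gene's own for an absolute z of 1 or more, otherwise the median of its bin, with 60 bins of mean log2 CPM. Differences between columns were tested with these errors, two-sided, with Benjamini-Hochberg adjustment over all 13410 genes. Where the DMSO libraries are shared, leaving them in makes the error too large. The alternative takes them off, assuming that DMSO and treated libraries contribute equally and that both columns have like errors. Errors in the column MK were larger (for MYB 0.13, against 0.07 with alisertib), so there the alternative may take off too much. Named were all genes found, list genes called in at least 1 comparison (at most the 6 of smallest p for each list), KMT2A, AFF1, DOT1L and MEN1, and the 3 genes nearest to MYB. Uncalled HOX, TALE and cluster genes, CD14, ITGAM and IL7R were added after their values were seen. Values of 1 gene of the lists are not reported here, though the counts of its list include it. Through their identifier 2 listed genes were found under an older symbol. Python 3.11.15, pandas 2.3.3, numpy 2.4.6, scipy 1.17.1 and matplotlib 3.10.9 were used, and promoters are from RefSeq (GRCh38.p14).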

Additional observations from a re-analysis of the deposited data

How the results depend on the processing

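No paired analysis was possible because the table holds comparisons and no values per library; for the same reason no library could be left out. The call of MYB with alisertib was made at thresholds of 0.01 and 0.10, with the adjustment recomputed over the 13410 genes, and with it recomputed over those at 3 log2 CPM or above. In the column A100 none of the 5 genes was called at 0.05, and 1 (MYB) was called at a threshold of 0.10. It was also called with either recomputed adjustment, which for all 13410 genes gave MYB an adjusted p of 0.0488. Both recomputed adjustments leave out tests of the authors, 3402 of them for all 13410 genes, so the change to a call is no added evidence. The shares of all genes called under these settings are not given here. The median of the 5 genes in that column was 0.09, and -0.03 without HOXA9. Were the JB170 column coded like the others, every JB170 sign would turn and the median of the 5 genes with JB170 would be 0.05. In the difference between alisertib and JB170, 1 of the 5 genes would then be called, MYB at -0.33 with an adjusted p of 0.0461. The share of all genes called under that coding is not given here, so this count has no background beside it. Of the list genes 2 were called in the column MK, and 1 at a threshold of 0.01, an alternative chosen after the data were seen. Of 36 alternatives for such counts and medians, the other 30 left the count within 1.5 times or moved the median by less than the median standard error of the genes. Of 40 for single genes against DMSO, 39 kept their side of the threshold. A gene not called at 0.05 cannot be called at 0.01, so many of these outcomes were fixed in advance. The count of 39 is therefore no measure of robustness. Abundance limits HOXA9 most: its implied standard errors ran from 0.48 to 0.60 on the log2 scale, against 0.07 to 0.13 for MYB.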
